A study of Mus musculus with 19 samples.

Results

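Klf2, Klf3, Klf4, Klf5, Klf6, Klf9, Klf10 and Klf13 are 8 members of the Kruppel-like factor family of transcription factors. They were chosen by name, with earlier results of these data known. Their transcripts were summed per gene, which gave 8 of the 54119 genes of the table. All 8 passed the filter on low values (at least 1 TPM, a length-corrected share of all transcripts, in at least 3 libraries), as did 14972 genes in all.

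RNA was sequenced from 19 libraries of mouse embryonic stem cells (mESC) and of epiblast-like cells (EpiLC), a later pluripotent state made from mESC in culture. The mESC grew in 2i medium, which blocks the GSK3 and MEK kinases, with the cytokine LIF. EpiLC were made by withdrawing LIF and giving FGF5 and Activin A for 5 days. The study asked whether TET3, an enzyme that oxidises 5-methylcytosine, is needed for this step.

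The mESC comprised 3 libraries of XX, 3 of XY and 4 of Tet3-/- cells, and the EpiLC 3 of each. XX and Tet3-/- cells carry the strain label LF2 and XY cells the label E14, and XX and XY are wild type for Tet3. Sex and cell line therefore cannot be told apart. The Tet3-/- libraries are numbered #1 to #4 (#1, #3 and #4 in EpiLC). The labels do not say whether numbered libraries came from separate cultures or clones, so p-values measure only the spread between these libraries, which may be technical.

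Kruppel-like factors bind GC-rich and CACCC-type DNA through zinc fingers at the C-terminal end of the protein. Klf2, Klf4 and Klf5 are known for overlapping roles in the self-renewal of naive mESC, where Klf4 acts downstream of LIF and STAT3 and Klf2 is sustained by MEK inhibition. Klf3 represses transcription through the corepressor CtBP, and Klf9, Klf10 and Klf13 can recruit the corepressor Sin3A. Klf6 and Klf10 are known as quickly induced genes, Klf10 as a target of TGF-beta, the signalling family that includes Activin.

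Promoter sequences of 4 members are printed because these genes show the main patterns of the data. Klf2 and Klf4 had the deepest losses on the way to EpiLC, Klf6 the gain, and Klf9 a moderate loss in each genotype. Each run is the 250 bases before the RefSeq gene start (build GRCm38.p6), written 5′ to 3′ on the strand of the gene. Capitals mark matches to the motifs searched, on either strand. The GC box was searched as GGGCGG. The CACCC box has those letters. A site of the STAT type was searched as TTCNNNGAA.
Klf2 (chr8:72318812-72319061, plus strand): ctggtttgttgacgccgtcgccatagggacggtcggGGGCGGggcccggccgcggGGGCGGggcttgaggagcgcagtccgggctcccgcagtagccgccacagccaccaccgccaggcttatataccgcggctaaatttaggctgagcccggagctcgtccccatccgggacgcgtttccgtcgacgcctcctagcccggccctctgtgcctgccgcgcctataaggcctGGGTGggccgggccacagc
Klf4 (chr4:55532476-55532725, minus strand): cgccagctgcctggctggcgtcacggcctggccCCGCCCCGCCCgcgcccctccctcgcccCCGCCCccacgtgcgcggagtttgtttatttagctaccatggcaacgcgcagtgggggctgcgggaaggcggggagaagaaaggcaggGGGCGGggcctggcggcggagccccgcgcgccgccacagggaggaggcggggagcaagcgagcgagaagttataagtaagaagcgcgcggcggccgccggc
Klf6 (chr13:5861239-5861488, plus strand): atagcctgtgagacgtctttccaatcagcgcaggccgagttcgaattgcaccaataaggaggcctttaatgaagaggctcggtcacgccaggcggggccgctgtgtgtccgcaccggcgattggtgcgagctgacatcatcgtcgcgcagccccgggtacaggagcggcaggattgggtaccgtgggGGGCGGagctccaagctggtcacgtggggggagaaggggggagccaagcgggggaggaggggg
Klf9 (chr19:23140976-23141225, plus strand): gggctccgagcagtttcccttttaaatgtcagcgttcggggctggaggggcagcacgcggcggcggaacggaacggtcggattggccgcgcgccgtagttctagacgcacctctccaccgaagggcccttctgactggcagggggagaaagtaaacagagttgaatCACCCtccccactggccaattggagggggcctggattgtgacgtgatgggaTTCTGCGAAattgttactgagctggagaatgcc

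Windows were found for 6 of the 8 members, among 32851 windows of the same length in the genome. GC boxes numbered 2 in the Klf2 window, 4 in Klf4, 1 in Klf6, 6 in Klf3 and 3 in Klf13. The share of all windows holding a GC box was 32.7%. CACCC boxes numbered 1 in Klf2, 5 in Klf3, 1 in Klf9 and 1 in Klf13, and 52.0% of all windows held this shorter motif. In Klf3 and Klf13 a CACCC box overlapped a GC box. A STAT-type site was found in the Klf9 window, starting 33 bases before the gene start, and in 7.02% of all windows. A match of letters is not evidence of binding. The GC content was 71.2% in Klf2, 74.0% in Klf4, 64.8% in Klf6 and 59.6% in Klf9, against a median of 52.4% over all windows.

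Levels below are scaled TPM, the deposited TPM divided by a median-of-ratios factor for each library. Scaling was used because a few abundant non-coding RNAs held unequal shares of TPM: Rn7s1 alone held from 23.5% to 43.7% per library. On the deposited scale the median log2 fold change of all genes was 0.14 in the XX transition, 0.54 in the XY transition and -0.13 in the Tet3-/- transition. With Tet3-/- set beside XX it was 0.19 among mESC and -0.07 among EpiLC, and with XX set beside XY it was -0.19 and -0.59. Scaled, each of these 7 medians lay within 0.02 of 0. TPM carries no record of sequencing depth, which is therefore unknown. Fold changes are on the log2(scaled TPM + 1) scale, which understates the change of low genes. A gene was called at an adjusted p under 0.05 (limma, Benjamini-Hochberg over the 14972 genes tested).

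Of 6 mESC markers, each had a mean of at least 1 scaled TPM in every mESC group. Of 5 EpiLC markers all 5 did so in XY EpiLC and 4 in XX and Tet3-/- EpiLC, where Fgf15 did not. This floor does not part the states. Otx2 and Dnmt3b, 2 of the EpiLC markers, also reached it in each mESC group. All 6 mESC markers reached it in XX and Tet3-/- EpiLC, and 4 in XY EpiLC. Otx2 had 17 to 27.3 scaled TPM in XX mESC and 11.3 to 12 in XX EpiLC. The summed EpiLC markers reached 43.9 to 45.7 in XX EpiLC, 56 to 110 in Tet3-/- EpiLC and 183 to 186 in XY EpiLC. Of 6 fibroblast genes, Col1a1, Col1a2, Col3a1, Dcn and Lum had means under 1 in every group. Thy1, the other, had 2.37 to 3.45 scaled TPM in XX EpiLC and 4.78 to 5.97 in XY EpiLC. It was called higher in the XX and XY transitions. Tet3 itself had 0.651 to 1.23 scaled TPM in XX mESC and 0.518 to 0.841 in Tet3-/- mESC (limma log2 fold change -0.20, adjusted p 0.44). In EpiLC it had 1.4 to 1.91 in XX and 1.05 to 1.31 in Tet3-/- (-0.34, adjusted p 0.114). Gene-level TPM therefore did not set the libraries labelled Tet3-/- apart by a called change, and the labels do not say which part of the gene the allele removes. Libraries that stood apart were XX mESC 2, which differed from XX mESC 1 and 3 in Klf3 and Klf10, and Tet3-/- EpiLC #3. In #3 the summed mesoderm markers T, Mixl1, Mesp1 and Tbx6 reached 80.5 scaled TPM, against 1.94 in the lowest library of that group.

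**Figure D1:**
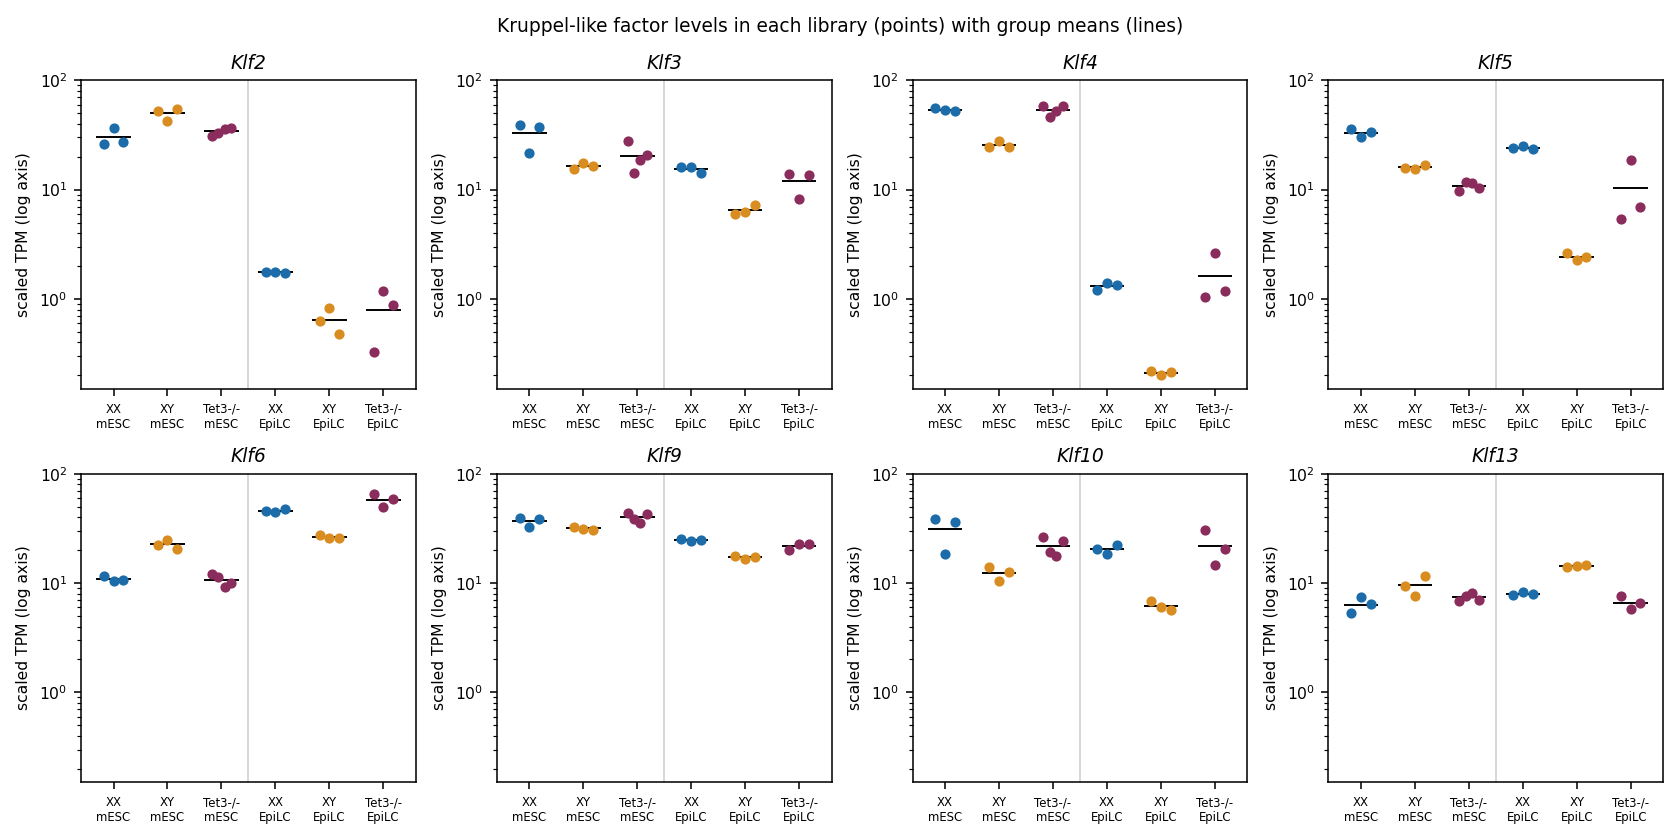
Level of each Kruppel-like factor in every library, as scaled TPM on a log axis. Points are libraries, horizontal bars are group means, and the grey line parts mESC from EpiLC. Klf2 and Klf4 lie at 24.3 scaled TPM or more in each mESC library and at 2.61 or less in each EpiLC library, while Klf6 moves up in XX and Tet3-/- cells.

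The naive-state factors Klf2 and Klf4 had the deepest losses among the 8 genes. Klf2 (chromosome 8, 72319033 to 72321656, GRCm38) measured 26.4, 36.7 and 27.5 scaled TPM in XX mESC. It measured 52.8, 42.3 and 55.1 in XY mESC, and 30.7, 32.9, 36.2 and 36.7 in Tet3-/- mESC. The XY libraries were thus all above the others. In EpiLC the values were 1.76, 1.78 and 1.73 in XX, 0.635, 0.829 and 0.48 in XY, and 0.328, 1.17 and 0.88 in Tet3-/-. Every EpiLC library was far below every mESC library, and on scaled TPM XX EpiLC stayed above both other EpiLC groups.

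Klf2 fell in all 3 transitions, by 3.49 ± 0.16 on the log2 scale (SE) in XX (limma adjusted p 6.96e-11), by 4.95 ± 0.16 in XY (1e-12) and by 4.32 ± 0.15 in Tet3-/- (1.78e-12). Ratios of the mean scaled TPM, which the added constant does not shrink, were 17.2, 77.3 and 43.1. In bulk RNA, fewer cells that express a gene and less of its RNA per cell cannot be told apart. The XX and XY transitions differed by 1.46 ± 0.23 (adjusted p 0.000268), so the loss was shallower in XX.

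Klf4 (chromosome 4, 55527143 to 55532466) measured 55.9, 53.2 and 52.3 scaled TPM in XX mESC and 58.1, 45.8, 52.8 and 58.5 in Tet3-/- mESC. It measured 24.3, 28.1 and 24.5 in XY mESC, less than in any LF2 library. EpiLC values were 1.22, 1.41 and 1.34 in XX, 0.217, 0.201 and 0.215 in XY, and 1.04, 2.61 and 1.18 in Tet3-/-. Among the Tet3-/- EpiLC libraries the highest was #3. The fall was of similar size in the 3 genotypes on the log2(scaled TPM + 1) scale, with XX at -4.56 ± 0.16 (limma adjusted p 2.82e-12), XY at -4.45 ± 0.16 (2.24e-12) and Tet3-/- at -4.44 ± 0.15 (9.36e-13). The ratios of means were 40.6, 122 and 33.4. The XX and XY transitions differed by -0.11 ± 0.23 (adjusted p 0.788, 95% interval -0.59 to 0.38). With a pseudocount of 0.1 this difference was 1.12 (adjusted p 0.0173), in the other direction, and the XY EpiLC values of Klf4 lie well under the main pseudocount of 1.

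Klf5 (chromosome 14, 99298691 to 99315036), which also acts in the trophectoderm, did not follow Klf2 and Klf4. XX cells held 35.6, 30.3 and 33.8 scaled TPM in mESC and 24, 25 and 23.3 in EpiLC. XY cells went from 15.9, 15.3 and 16.9 to 2.62, 2.25 and 2.43. Tet3-/- mESC had 9.65, 11.8, 11.5 and 10.4, and Tet3-/- EpiLC had 5.34 (#1), 18.6 (#3) and 6.9 (#4). The states did not overlap in XX or XY cells and overlapped in Tet3-/- cells.

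In XY cells Klf5 fell by 2.31 ± 0.27 (limma adjusted p 1.86e-06, ratio of means 6.6). In XX cells its value was -0.44 ± 0.27 (adjusted p 0.179), which was called with only these groups in the fit (adjusted p 0.00956), and the XX and XY transitions differed by 1.87 ± 0.37 (adjusted p 0.00173). Its value in the Tet3-/- transition was -0.25 ± 0.25 (adjusted p 0.433). Without library #3 that value was -0.74 and called (adjusted p 2.62e-05), so this library decided the call. Trophectoderm markers did not move as a set. Of 5 tested, 2 were called higher and 1 lower in the XX transition, beside 24.5% and 25.9% of all genes. Tfap2c had 14.5 to 16.4 scaled TPM in XX mESC and 1.91 to 2.32 in XX EpiLC. In EpiLC the sum of Cdx2, Elf5, Gata3, Tfap2c, Eomes and Krt8 was 167 to 168 scaled TPM in XX. This sum was 156 to 284 in Tet3-/- and 27.7 to 33.4 in XY. Krt8 made up most of it, with 149 to 264 in the LF2 EpiLC libraries, and the group means of Cdx2 and Elf5 were under 1 in all EpiLC groups. Whether trophectoderm cells were present, and their part in the Klf5 result, was not tested.

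Klf6 (chromosome 13, 5861482 to 5870394), a broadly expressed factor, went the other way. It measured 11.5, 10.4 and 10.6 scaled TPM in XX mESC, 12.1, 11.3, 9.13 and 10.1 in Tet3-/- mESC, and 22.4, 24.7 and 20.6 in XY mESC. In EpiLC it measured 45.7, 44.8 and 47.4 in XX, 64.8, 49.6 and 58.3 in Tet3-/-, and 27.3, 25.6 and 25.9 in XY. On scaled TPM XY cells thus started above the LF2 cells and ended below them. On deposited TPM the EpiLC ranges overlapped, with 37.6 to 44.5 in XY, 39.5 to 48.2 in XX and 38.4 to 66.4 in Tet3-/-. Klf6 rose by 1.99 ± 0.11 in XX (limma adjusted p 4.12e-10, ratio of means 4.25) and by 2.33 ± 0.10 in Tet3-/- (1.77e-11, ratio 5.4). Its value in XY was 0.21 ± 0.11 (adjusted p 0.116), and the XX and XY transitions differed by 1.78 ± 0.16 (adjusted p 8.85e-07). The XY value was called under other scalings: 0.87 on deposited TPM (adjusted p 0.00413), 0.53 after rescaling TPM to nuclear protein-coding genes (0.00335) and 0.34 under quantile normalization (0.0117).

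Klf9, Klf10 and Klf13 are the Sin3A-recruiting factors. Klf9 (chromosome 19, 23141226 to 23168134), a factor induced by thyroid and glucocorticoid hormones, measured 39.1, 32.8 and 38.2 scaled TPM in XX mESC, 32.6, 31.3 and 30.8 in XY mESC, and 35.4 to 44 in Tet3-/- mESC. The EpiLC libraries held 25.5, 24.4 and 24.6 in XX, 17.8, 16.7 and 17.2 in XY, and 20.1, 22.7 and 22.8 in Tet3-/-. Every EpiLC library was below every mESC library. Klf9 fell by 0.54 ± 0.09 in XX (limma adjusted p 0.000151), by 0.84 ± 0.09 in XY (1.41e-06) and by 0.85 ± 0.09 in Tet3-/- (5.08e-07). On deposited TPM the XX and XY values were -0.33 (adjusted p 0.397) and -0.19 (adjusted p 0.567) and not called. After rescaling TPM to nuclear protein-coding genes the XX value was -0.37 and not called (adjusted p 0.1).

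Klf10 (chromosome 15, 38291463 to 38300706), the TGF-beta-inducible early gene, differed between replicates of XX mESC. XX mESC 1 and 3 had 38.6 and 36.4 scaled TPM, and XX mESC 2 had 18.5. Levels in XY mESC were 14.1, 10.4 and 12.5, and in Tet3-/- mESC 26.4, 19.4, 17.6 and 24.1. EpiLC values were 20.6, 18.5 and 22.4 in XX, 6.87, 5.97 and 5.68 in XY, and 30.8, 14.7 and 20.5 in Tet3-/-. The states were separate in XY cells only. Klf10 fell by 0.89 ± 0.26 in XY (limma adjusted p 0.0092), and that call was lost on deposited TPM (-0.29, adjusted p 0.383) and after rescaling TPM to nuclear protein-coding genes (-0.60, adjusted p 0.0948). Its values were -0.52 ± 0.26 in XX (adjusted p 0.11) and -0.04 ± 0.24 in Tet3-/- (adjusted p 0.92). Without XX mESC 2 the XX value was -0.84 and called (adjusted p 0.0063).

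Klf13 (chromosome 7, 63886351 to 63938915), known as an activator of the chemokine gene Ccl5 in T cells, had the lowest level of the 8 in each mESC group. It measured 5.3, 7.41 and 6.36 scaled TPM in XX mESC, 9.46, 7.67 and 11.6 in XY mESC, and 6.8 to 8.1 in Tet3-/- mESC. EpiLC held 7.79, 8.21 and 7.88 in XX, 13.9, 14.3 and 14.7 in XY, and 7.53, 5.76 and 6.58 in Tet3-/-. XY EpiLC was above all other libraries. It rose by 0.55 ± 0.13 in XY (limma adjusted p 0.00231). The XX value was 0.29 ± 0.13 (adjusted p 0.0749) and that of Tet3-/- -0.14 ± 0.12 (adjusted p 0.372). The XX value was called without XX mESC 2 (0.39, adjusted p 0.0259) and under quantile normalization (0.35, adjusted p 0.0462).

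Klf3 (chromosome 5, 64803388 to 64832901), the CtBP-recruiting repressor, needs its transcripts to be read apart. The gene total was 39.2, 21.7 and 37.2 scaled TPM in XX mESC, 15.4, 17.5 and 16.4 in XY mESC, and 27.6, 14.2, 18.6 and 20.7 in Tet3-/- mESC. In EpiLC it was 16, 16.1 and 14.2 in XX, 6.01, 6.22 and 7.17 in XY, and 13.8, 8.24 and 13.7 in Tet3-/-. The total fell by 0.99 ± 0.23 in XX (limma adjusted p 0.00204), by 1.22 ± 0.23 in XY (0.000352) and by 0.72 ± 0.22 in Tet3-/- (0.0112). The last was not called without Tet3-/- EpiLC #3 (-0.49, adjusted p 0.0763) or with only these groups in the fit (-0.72, adjusted p 0.0509).

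Of its 9 annotated transcripts 4 are protein coding, and a transcript annotated with a retained intron, Klf3-208, held much of the total. Klf3-208 made up 77.7%, 41.5% and 74.9% of Klf3 in XX mESC, 19.9%, 47.9% and 12.1% in XY mESC, and 30.4% to 62.1% in Tet3-/- mESC. In EpiLC its share was 51.7% to 54.5% in XX and 9.8% to 14.6% in XY. It was 53.1% and 51.5% in Tet3-/- #1 and #4, and it was listed at 0 in #3. The main coding transcript, Klf3-201, had 2.31, 7.54 and 2.27 scaled TPM in XX mESC and 9.42, 5.6 and 10.3 in XY mESC, and these ranges overlapped. Klf3-203, with a retained intron as well, held up to 12.4% in XY EpiLC.

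With only protein-coding transcripts summed, an alternative added after these shares were seen, XX mESC held 7.76 ± 2.49 scaled TPM of Klf3 and XY mESC 9.99 ± 2.3 (SD, n = 3 each). XX EpiLC held 4.72 ± 0.578 and XY EpiLC 4.36 ± 0.335 (SD, n = 3 each). The coding sum still fell in the transitions, by 0.58 in XX (limma adjusted p 0.0169), by 1.01 in XY (0.000285) and by 0.66 in Tet3-/- (0.00484). The sum of annotated coding transcripts thus fell in each genotype, while the gene total also follows transcripts annotated as non-coding. Klf3-201 taken alone did not part the states in XX or Tet3-/- cells. XX EpiLC had 2.79, 3.21 and 2.87 scaled TPM of it, above the 2.31 and 2.27 of XX mESC 1 and 3. Tet3-/- EpiLC #3 had 5.99, within the 5.05 to 8.56 of Tet3-/- mESC. In XY cells it had 5.6 to 10.3 in mESC and 3.42 to 3.63 in EpiLC. How reads of shared exons were divided between these transcripts cannot be checked in a TPM table.

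**Figure D2:**
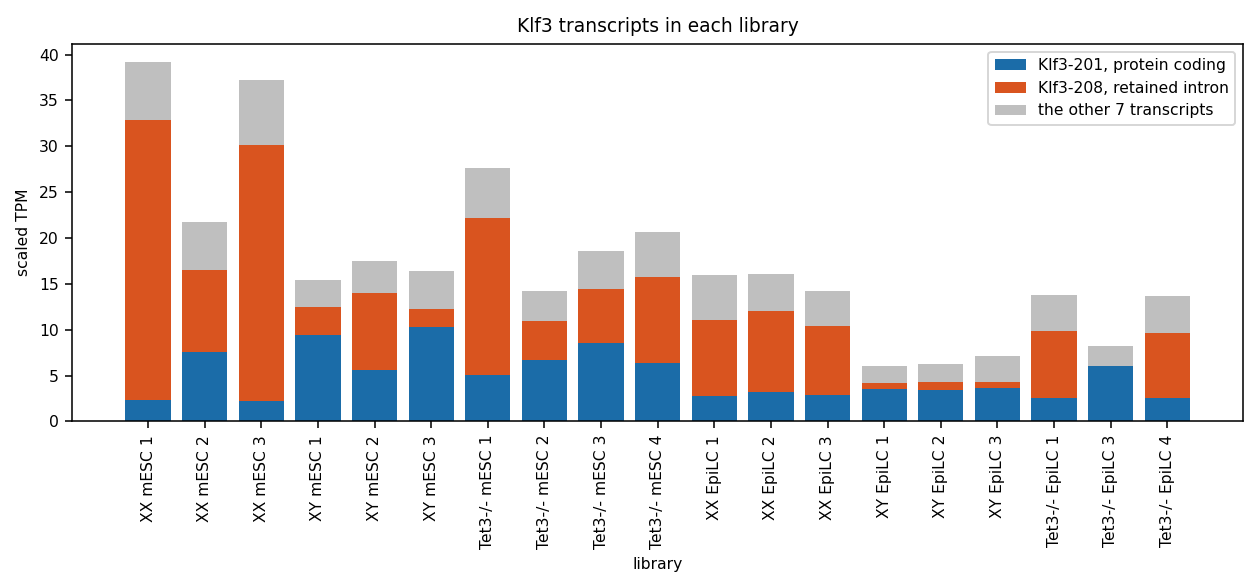
Klf3 transcripts in each library, as stacked bars of scaled TPM. Blue is the coding transcript Klf3-201, orange the retained-intron transcript Klf3-208 and grey the other 7 transcripts. Klf3-208 reaches 30.5 and 27.9 scaled TPM in XX mESC 1 and 3 and is 0 in Tet3-/- EpiLC #3.

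Other members held smaller shares in transcripts without a coding annotation. Klf6-202, with a retained intron, held 9.96% to 16.2% of Klf6 in the group means, and Klf13-203 held 10.9% to 25.3% of Klf13. Klf2 has 1 annotated transcript, and those of Klf4, Klf5 and Klf10 are all annotated as coding. Klf5-201 held 88.5% to 95.5% of Klf5 in the group means and Klf5-202 the rest. Klf10-201 and Klf9-201 held at least 90.2% of their genes in each group mean.

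Counted together, 5 of the 8 genes were called in the XX transition beside 50.4% of all tested genes, 1 of them higher (24.5% of all genes) and 4 lower (25.9%). The XY transition called 7 of 8 beside 51.4%, 1 higher (26.4%) and 6 lower (25%). In the Tet3-/- transition the count was 5 of 8 beside 52.4%, 1 higher (25.2%) and 4 lower (27.2%). Of all genes called in the XX transition 48.6% were higher, against 61.2% on deposited TPM and 60.7% after rescaling to nuclear protein-coding genes. The same shares were 51.3%, 81.5% and 70.3% in the XY transition. For XX, XY and Tet3-/- cells in turn, the median log2 fold change of the 8 was -0.53, -1.05 and -0.48, against -0.02, -0.00 and 0.00 over all genes. As the 8 were chosen with earlier results of these data known, these counts and medians only describe them.

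**Figure D3:**
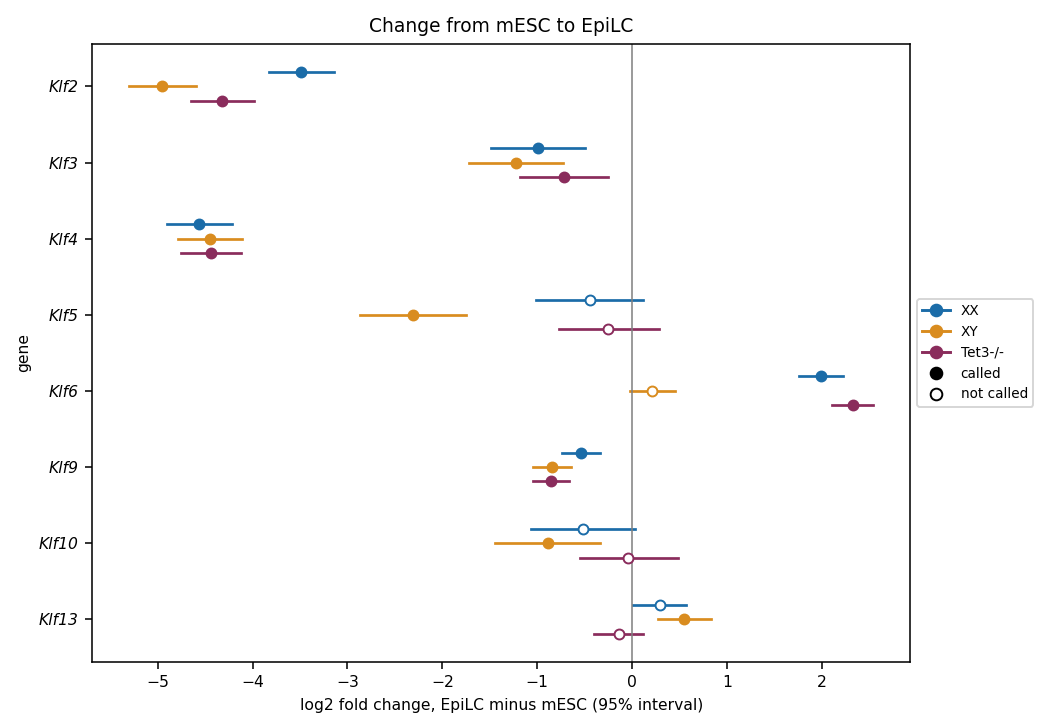
Change of each gene from mESC to EpiLC as log2 fold change with its 95% interval, for XX, XY and Tet3-/- cells. Filled points were called at an adjusted p under 0.05. Klf2, Klf3, Klf4 and Klf9 lie left of 0 in all 3 genotypes, Klf6 lies at 1.99 in XX and 2.33 in Tet3-/-, and Klf5 lies at -2.31 in XY.

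Within mESC, the order of levels differed between the lines. Klf4 was highest in XX and Tet3-/- (53.8 scaled TPM in both means), while Klf2 led in XY (50.1). The 5 genes after Klf4 in XX mESC, from Klf9 (36.7) to Klf2 (30.2), overlapped each with the next. In EpiLC Klf6 was highest in each group and Klf9 or Klf10 next. Klf2 and Klf4 were lowest in each, and in Tet3-/- EpiLC their ranges overlapped.

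Summed over the 8 genes, XX mESC held 235 ± 21.3 scaled TPM (SD, n = 3), XY mESC 184 ± 6.14 (SD, n = 3) and Tet3-/- mESC 199 ± 16.1 (SD, n = 4). Klf2, Klf4 and Klf5 together held 50.2% ± 5.84, 49.8% ± 1.42 and 49.7% ± 3.03 of it (SD), so this share differed by less than its spread between libraries. Klf2 was 13.1% of the sum in XX and 27.1% in XY mESC, and Klf4 was 23% and 13.9%. Among EpiLC the sum came to 142 ± 1.4 for XX, 73.8 ± 1.62 for XY and 133 ± 10.3 for Tet3-/- (SD, n = 3 each). The share of Klf2, Klf4 and Klf5 was 18.5% to 20.1% in XX and 4.23% to 4.6% in XY. It was 4.66% and 6.84% in Tet3-/- #1 and #4, and 18.2% in #3.

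**Figure D4:**
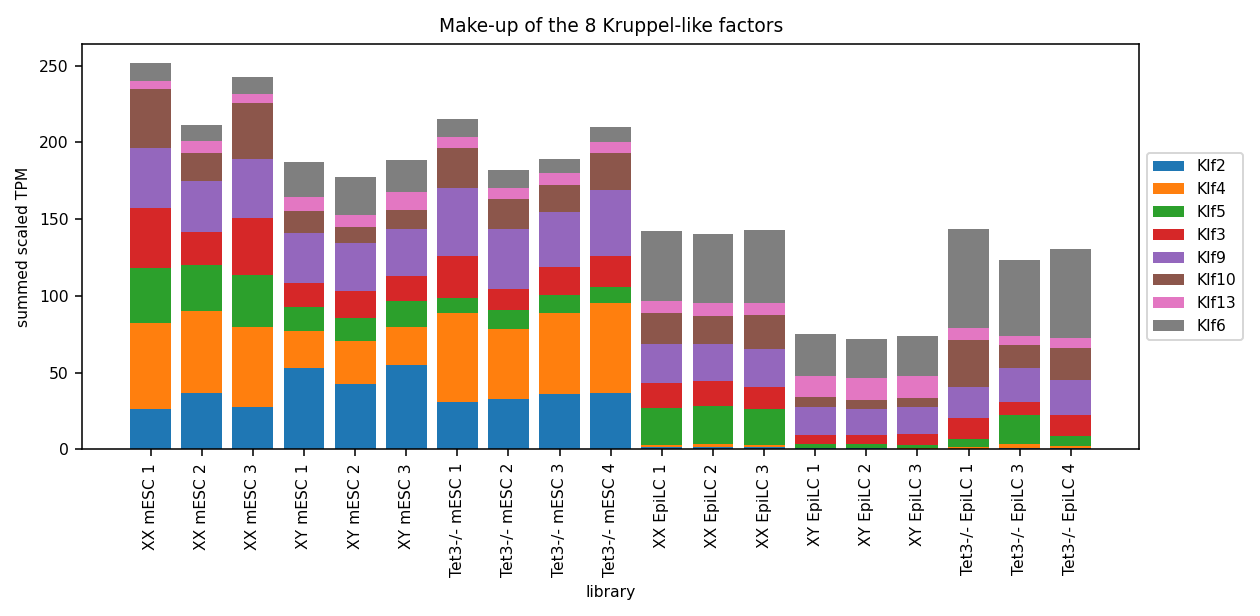
Stacked scaled TPM of the 8 genes in each library. Klf2, Klf4 and Klf5, at the bottom of each bar, make up 45.7% to 57% in the mESC libraries. In EpiLC libraries Klf6, at the top, is the largest part, and the sum is between 72.1 and 75.3 in XY.

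Tet3-/- cells were then compared with XX cells of the same state, to ask which of these genes moved with the genotype. In mESC 1 of the 8 was called, beside 3.19% of all genes in either direction and 1.42% lower: Klf5 was lower in Tet3-/- by 1.53 ± 0.25 on the log2 scale (limma adjusted p 0.00273). All 4 Tet3-/- libraries (9.65 to 11.8) were below all 3 XX libraries (30.3 to 35.6). On deposited TPM the value was -1.27 and not called (adjusted p 0.21). Klf4 had a difference of -0.01 ± 0.15 (95% interval -0.32 to 0.31) and Klf6 one of -0.03 ± 0.10 (95% interval -0.24 to 0.19). Klf3 had -0.66 ± 0.22 (adjusted p 0.128) and Klf10 -0.44 ± 0.24 (adjusted p 0.438). Both were called without XX mESC 2, at -0.92 (adjusted p 0.0111) and -0.77 (adjusted p 0.0353), when 1594 genes were called in place of 477. Of the genes called in mESC 55.6% were higher in Tet3-/- (1.77% of all), against 82.2% of the calls on deposited TPM.

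In EpiLC 2 of the 8 were called, both lower, beside 5.46% of all genes in either direction (2.5% higher, 2.96% lower). Of the calls 45.8% were higher, against 11.2% on deposited TPM and 10.6% after rescaling to nuclear protein-coding genes. Klf5 was lower in Tet3-/- by 1.34 ± 0.27 (limma adjusted p 0.00707) and Klf2 by 0.65 ± 0.16 (0.0292). On scaled TPM every Tet3-/- library was below every XX library in both. The share of all genes without overlap was not counted. Library #3, with 18.6 scaled TPM of Klf5, was much nearer to XX than #1 and #4. On deposited TPM #3 had 25 of Klf5, above the 20.8 to 24.2 of XX. Its deposited Klf2 was 1.57, within the 1.53 to 1.76 of XX. Neither Klf5 nor Klf2 was called on deposited TPM (limma adjusted p 0.156 and 0.589) or with only these groups in the fit (0.163 and 0.136). The Klf2 call was also lost without any of the 3 XX libraries (adjusted p 0.0822 to 0.103) or without #1 (0.0903). Klf6 had 0.31 ± 0.11 (adjusted p 0.115), and without #3 it was called higher in Tet3-/- (0.41, adjusted p 0.0384).

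The transition itself was not called as different between Tet3-/- and XX for any of the 8 (limma), beside 0.661% of all genes (37.4% of them higher, against 0% of the calls on deposited TPM and 8.16% after rescaling to nuclear protein-coding genes). At an unadjusted p under 0.05 there were 4 of 8, beside 11% of all genes. Klf2 had the largest difference, -0.83 ± 0.23 (adjusted p 0.119, 95% interval -1.31 to -0.35). It was called without XX mESC 2 (-0.98, adjusted p 0.0293) and without Tet3-/- EpiLC #3 (-0.99, adjusted p 0.0373). For Klf5 the difference was 0.20 ± 0.36 (95% interval -0.57 to 0.97), and Klf5 was called lower in Tet3-/- cells in both states.

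**Figure D5:**
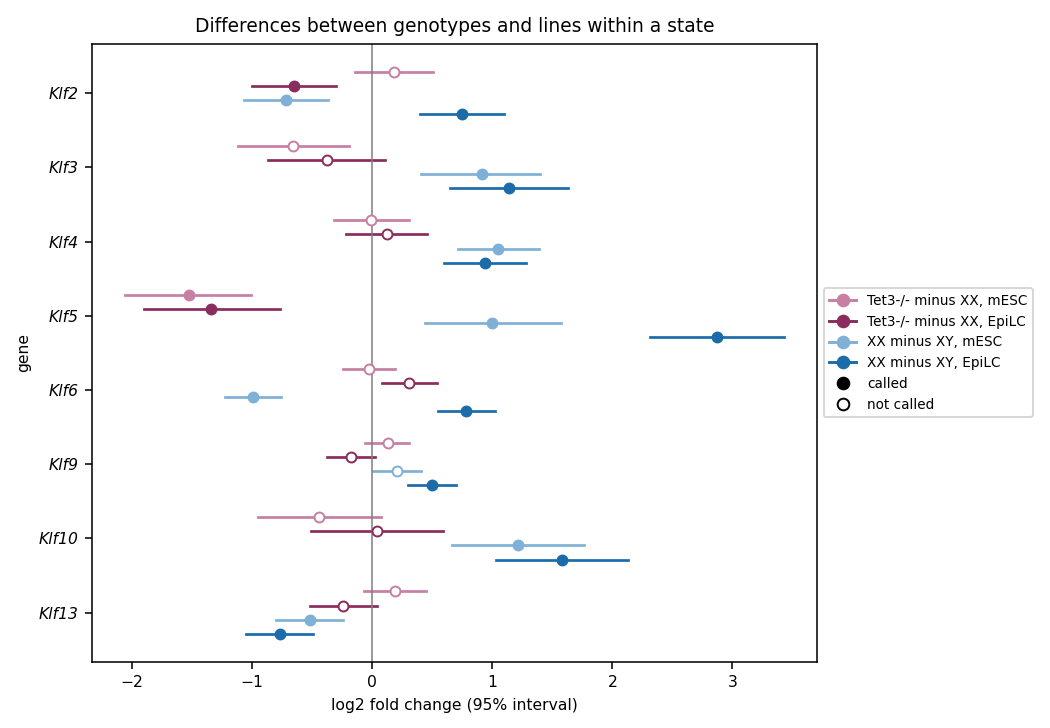
Differences within a state, as log2 fold change with 95% interval, for Tet3-/- minus XX and XX minus XY in mESC and EpiLC. Filled points were called at an adjusted p under 0.05. Klf5 lies at -1.53 and -1.34 for Tet3-/- minus XX, and at 1.00 and 2.87 for XX minus XY.

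The XX and XY lines differed in most of these genes. In mESC 7 of the 8 were called, beside 31.3% of all genes (17.7% higher in XX, 13.6% higher in XY). Klf10 (1.21 ± 0.26, limma adjusted p 0.002), Klf4 (1.05 ± 0.16, 0.000119), Klf5 (1.00 ± 0.27, 0.00858) and the Klf3 total (0.91 ± 0.23, 0.00717) were higher in XX. Klf6 (-0.99 ± 0.11, 5.36e-06), Klf2 (-0.72 ± 0.16, 0.00348) and Klf13 (-0.52 ± 0.13, 0.0068) were higher in XY. Klf9 had 0.21 ± 0.09 (adjusted p 0.105). On scaled TPM the ranges of XX and XY libraries did not overlap for any of the 8. The share of all genes without such overlap was not counted. Ranges of Klf2, Klf4, Klf5, Klf9 and Klf13 overlapped on deposited TPM. On deposited TPM Klf6 and Klf10 were called, while Klf2 (-0.98, adjusted p 0.0544), Klf3 (0.63, 0.101), Klf4 (0.77, 0.101), Klf5 (0.73, 0.281) and Klf13 (-0.75, 0.114) were not. The Klf2 call was also lost with a pseudocount of 0.1 (-0.73, adjusted p 0.0614), and that of Klf13 after rescaling to nuclear protein-coding genes (-0.50, adjusted p 0.0609). With only these groups in the fit, Klf3 (adjusted p 0.0519) and Klf13 (0.12) were not called. Of all calls on deposited TPM 45.4% were higher in XX, against 56.5% after scaling. For the coding transcripts of Klf3 alone the value was -0.34 (adjusted p 0.184), opposite in sign to that of the total.

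In EpiLC all 8 were called, beside 33.8% of all genes, 7 of them higher in XX (17.2% of all genes) and 1 higher in XY (16.6%). Of all calls 50.9% were higher in XX, against 11.1% on deposited TPM. Klf5 had the largest difference, 2.87 ± 0.27 (limma adjusted p 5.23e-07, ratio of means 9.92), followed by Klf10 with 1.58 ± 0.26 (0.000183, ratio 3.32) and the Klf3 total with 1.14 ± 0.23 (0.00124, ratio 2.39). Klf4 had 0.94 ± 0.16 (0.000264), with a ratio of means of 6.28 at low levels. Klf6 had 0.78 ± 0.11 (4.15e-05), Klf2 0.75 ± 0.16 (0.0022) and Klf9 0.50 ± 0.09 (0.000567). Klf13 was higher in XY EpiLC (-0.77 ± 0.13, 0.00026). On deposited TPM the calls of Klf4, Klf5, Klf10 and Klf13 held. Klf2 (0.41, adjusted p 0.31), Klf3 (0.48, 0.117) and Klf6 (0.07, 0.831) kept their sign and lost the call, and Klf9 had -0.20 (adjusted p 0.539), so the direction of Klf9 rests on the scaling. Rescaling to nuclear protein-coding genes gave 0.39 for Klf9 (adjusted p 0.108). The coding transcripts of Klf3 gave 0.09 (adjusted p 0.758). Of the 6 mESC markers 4 were called higher in XX EpiLC and 2, Nanog and Pou5f1, were not called. Nanog had 40.6 to 44.1 scaled TPM in XX and 46.2 to 54.3 in XY EpiLC. XX EpiLC held 13.2 ± 0.384 scaled TPM of Esrrb and XY EpiLC 0.458 ± 0.136 (SD, n = 3 each), with 10.6 ± 0.53 and 0.79 ± 0.104 of Tfcp2l1. The part of these markers in the Kruppel-like factor differences was not tested.

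On scaled TPM Klf2 and Klf6 changed order between the states, called higher in XY mESC and in XX EpiLC. On deposited TPM neither call of Klf2 held, nor that of Klf6 in EpiLC, as given above. The difference of the XX and XY transitions was called for 3 of the 8, beside 23.7% of all genes (10.9% higher), namely Klf5, Klf6 and Klf2 with the values given above. On deposited TPM only Klf6 of the 8 was called, with Klf2 at 1.39 (adjusted p 0.0502) and Klf5 at 1.57 (0.0876), and 22.5% of all calls were higher, against 46% after scaling. Comparisons of XX with XY and of Tet3-/- with XX share the XX libraries.

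Other genes that act with these factors were counted from lists. Of 9 other Kruppel-like factors 6 were tested. In the XX and Tet3-/- transitions 2 rose and 2 fell, and in XY 1 rose and 2 fell, beside 24.5% to 26.4% of all genes higher and 25% to 27.2% lower. Klf8 fell in each transition, by 1.70 in XX (limma adjusted p 2.06e-06), by 1.41 in XY (1.39e-05) and by 1.76 in Tet3-/- (5.32e-07). Klf15 fell in each as well, by 1.04, 0.77 and 0.73 (adjusted p 0.00191, 0.0146 and 0.0124), and Klf7 rose by 1.19, 0.64 and 1.34 (adjusted p 9.15e-05, 0.0115 and 1.15e-05). Klf12 rose by 1.61 in XX (1.52e-05) and by 1.04 in Tet3-/- (0.00047). Klf11 and Klf16 were called in no transition, and Klf1, Klf14 and Klf17 did not pass the filter. The related Sp factors share the GC-box preference, and 7 of 9 were tested. In the XX transition 1 rose and 2 fell, in XY 1 rose and 1 fell, and in Tet3-/- 2 rose and 1 fell. Sp5 fell by 3.87 in XY (limma adjusted p 3.99e-05) and Sp3 by 0.35 in XX (0.00226). Sp1 had 20.7 to 24.8 scaled TPM in the group means and was called in no transition.

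The LIF and STAT3 input and the naive network held 18 genes, all tested. In the XX transition 12 fell and 1 rose, in XY 15 fell and 2 rose, and in Tet3-/- 12 fell and 1 rose, beside all-gene shares of 25.9%, 25% and 27.2% lower and 24.5%, 26.4% and 25.2% higher. The medians were -1.87, -2.20 and -2.44. The LIF receptor gene Lifr fell by 1.52, 2.24 and 2.00 (limma adjusted p 3.08e-08, 2.53e-10 and 3.71e-10). Stat3 fell by 0.79 in XY (adjusted p 0.000373) and had 0.27 in XX (0.15), and the XX and XY transitions differed in it by 1.06 (adjusted p 0.00181). In Tet3-/- against XX EpiLC 8 of the 18 were lower and none higher, beside 2.96% and 2.5% of all genes. In this comparison the share of higher calls moved from 45.8% to 11.2% on deposited TPM. Among the 8 were Esrrb (-1.65, adjusted p 6.37e-05) and Tcl1 (-1.92, 0.00251).

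Of 12 cofactors and ubiquitin ligases of these factors, 5 rose in each transition, and 2 fell in XX, 3 in XY and 4 in Tet3-/-. All-gene shares were 24.5% to 26.4% higher and 25% to 27.2% lower. Ctbp2, a corepressor that Klf3 recruits, rose by 1.23 in XX (limma adjusted p 0.000217), by 1.06 in XY (0.000766) and by 0.69 in Tet3-/- (0.00982). Kat2b, an acetyltransferase gene, fell by 1.32, 1.78 and 1.74 (adjusted p 1.22e-08, 2.75e-10 and 1.49e-10). Of 9 tested TGF-beta and immediate-early genes 7 rose in XX, 4 in XY and 6 in Tet3-/-, and none, 1 and 1 fell, beside 24.5%, 26.4% and 25.2% of all genes higher and 25.9%, 25% and 27.2% lower. Junb, an immediate-early gene, rose by 2.35, 1.39 and 2.61 (adjusted p 2.45e-07, 6.97e-05 and 2.54e-08). Its EpiLC level was 16.2 ± 0.79 scaled TPM for XX and 3.43 ± 0.323 for XY (SD, n = 3 each). Of the 9 genes 4 were called higher in XX than in XY EpiLC and 1 lower, beside 17.2% and 16.6% of all genes. Klf6 too was lower in XY EpiLC on scaled TPM, while on deposited TPM its difference was not called (0.07, limma adjusted p 0.831). A link between Junb and Klf6 was not tested.

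Genes whose pattern was most like that of a member were found by Pearson's r of log2(scaled TPM + 1) over the 19 libraries among 9750 genes with a mean of at least 5 scaled TPM in a group. The libraries share 6 groups, so r mostly describes differences between groups, and it is given with no test. For Klf2 these were AI464131 (0.998), Cobl (0.994) and H2-M6-ps (0.993), and for Klf4 Arl14epl (0.993), Akap1 (0.992) and C130074G19Rik (0.992). Klf6 was closest to Carhsp1 (0.981), Ier5 (0.968) and Fhl1 (0.967), and Klf9 to Sult6b1 (0.980), Rec114 (0.979) and Dhx32 (0.977). Klf5 had weaker matches, led by Emp1 (0.898), Rnh1 (0.898) and Wdr45 (0.891). The closest to the Klf3 total were Pip4k2c (0.957), S100a13 (0.956) and Ap3b1 (0.955), to Klf10 Atp6v0d1 (0.958), Npr3 (0.945) and Tinagl1 (0.942), and to Klf13 Hnrnph2 (0.932), Camk2b (0.930) and Myb (0.929).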

How the data were processed

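RNA was total RNA cleared of ribosomal RNA and sequenced with strand kept, per the labels. The authors deposited TPM for 140948 transcripts in 19 libraries. Per the submitters' processing notes, the tools were FastQC 0.11.7, Trimmomatic 0.35 and Salmon 1.1.0, and the build was GRCm38. The annotation release is not given in the sources used here. Since TPM holds no depth, error is given as the spread of libraries.

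Transcripts were assigned to genes through GENCODE M21, and 1096 without a match were left out (at most 0.2149% of the TPM of a library). Gene sums were divided by median-of-ratios factors over 13815 genes. A linear model with 6 groups was fitted by limma 3.58.1 (R 4.3.3) to log2(scaled TPM + 1), with moderated variances that follow the mean level. It gave 9 contrasts, each with its own Benjamini-Hochberg adjustment. The script was tested on simulated data. Tables and plots were made with Python 3.11.15, pandas 2.3.3 and matplotlib 3.10.9.

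The 8 genes and the gene lists were chosen with earlier results of these data known. From each list could be named the called genes with the 2 highest and 2 lowest values, given a mean of at least 5 scaled TPM in a group, and genes set beside a member. Transcripts were named from 10% of their gene in a group mean. Likeness names the 3 genes with the highest r. Klf11, Klf16, Klf1, Klf14, Klf17 and Sp1 are named outside this rule, as is Klf15 for Tet3-/- against XX mESC.

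Alternatives changed the scaling (deposited TPM, quantile normalization, rescaling to nuclear protein-coding genes), the pseudocount (0.1), the filter (none, or 5 TPM in 3 libraries), the libraries fitted (only those compared, or leaving each out in turn), the variance trend, a block for replicate numbers and the call rule (a log2 fold change of 1 or more in size as well). Summing coding transcripts only was added after the data were seen. Reads that a member shares with an overlapping gene were not checked.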

Additional observations from a re-analysis of the deposited data

Results flagged for a closer look

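The step from mESC to EpiLC differed between XX and XY cells, by a test of the difference itself (limma), for 3 of the 8 genes. The same test called 23.7% of all genes, 10.9% higher and 12.8% lower. Klf2 had a difference of XX minus XY of 1.46 on the log2 scale, with a shallower fall in XX cells. Klf5 had 1.87, with a fall that was called in XY cells, and in XX cells only when the fit held just the groups compared (adjusted p 0.00956). Klf6 had 1.78, with a rise that was called in XX cells. On scaled TPM, for Klf2 and Klf6 every XX library was below every XY library in mESC and above every XY library in EpiLC. On deposited TPM Klf2 overlapped in mESC and Klf6 in EpiLC, and the differences of Klf2 (1.39, limma adjusted p 0.0502) and Klf5 (1.57, 0.0876) were not called. Sex and cell line cannot be told apart here.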

How the results depend on the processing

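Of the member values under another setting 658 kept their direction and side of the threshold, 30 lost a call, 6 gained a call and 26 turned, and with a library left out the numbers were 523, 5, 9 and 15. Only the XX against XY values of Klf3 in mESC and Klf9 in EpiLC turned from a call. The cause of these changes was not tested. TPM carries no depth, so no limit from counting can be given, and 3 or 4 libraries a group limit what could be called.

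Requiring a log2 fold change of at least 1 in size as well as the adjusted p left 3, 4 and 3 members in the XX, XY and Tet3-/- transitions, 1 for Tet3-/- against XX EpiLC, and 3 and 3 for XX against XY in mESC and EpiLC. The counts over all genes were then 2800, 2944 and 2875 in the transitions, 67 and 139 for Tet3-/- against XX, 1334 and 1334 for XX against XY, and 50 and 1632 for the differences of transitions (Tet3-/- minus XX, XX minus XY).

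Deposited TPM called 0 and 0 members when Tet3-/- was set beside XX (mESC, EpiLC), 2 and 4 for XX against XY, and 1 for the XX minus XY difference. Over all genes it called 4689 in the XX transition, 90 and 161 for Tet3-/- against XX, 2121 for XX against XY mESC and 26 for the Tet3-/- minus XX difference. Its all-gene counts for XX against XY EpiLC and for the XX minus XY difference are not given here. With deposited TPM Tet3-/- minus XX turned to 0.26 for Klf4 and 0.22 for Klf6 in mESC and to -0.07 for Klf10 in EpiLC. XX minus XY turned to -0.06 and -0.20 for Klf9 in mESC and EpiLC. The Tet3-/- minus XX difference turned to -0.10 for Klf3, -0.16 for Klf4, -0.14 for Klf5 and -0.03 for Klf6, and the XX minus XY difference to -0.16 for Klf3, -0.14 for Klf9 and -0.01 for Klf10.

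Rescaling to nuclear protein-coding genes called 1 member for Tet3-/- against XX EpiLC and 181 genes in mESC. Tet3-/- minus XX turned to 0.06 for Klf4 and 0.04 for Klf6 in mESC and to -0.13 for Klf10 in EpiLC, and the difference of transitions to -0.02 for Klf4 and -0.02 for Klf5. Quantile normalization gave Klf4 0.07 for Tet3-/- minus XX mESC. Without a filter 1 member was called for Tet3-/- against XX EpiLC. The filter at 5 TPM, which tests fewer genes, called 4999 genes in the XX transition and 51 and 2187 for the differences (Tet3-/- minus XX, XX minus XY). A pseudocount of 0.1 called 62 genes for the Tet3-/- minus XX difference and turned the XX minus XY difference of Klf4 to 1.12. Fitting only the groups compared called 0 members for Tet3-/- against XX EpiLC, and over all genes 8 and 405 when Tet3-/- was set beside XX (mESC, EpiLC), 2326 and 8645 for XX against XY, and 50 for the Tet3-/- minus XX difference. Coding transcripts alone gave Klf3 0.20 and 0.12 for Tet3-/- minus XX in mESC and EpiLC, -0.34 for XX minus XY mESC and -0.08 for the Tet3-/- minus XX difference, and Klf10 -0.00 for Tet3-/- minus XX EpiLC.

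The main fit did not pair libraries by replicate number. Correlations between mESC and EpiLC libraries were taken across genes, on deviations from group means. With the same number they were 0.04, -0.05 and 0.06 in XX, 0.21, -0.03 and 0.27 in XY, and 0.22, 0.22 and -0.09 in Tet3-/-. With different numbers they were -0.09 to 0.04 in XX, -0.28 to 0.09 in XY and -0.27 to 0.19 in Tet3-/-. These values do not settle whether the numbers pair the samples. With a replicate block 1 member, Klf5, was called for Tet3-/- against XX EpiLC, and Klf2 was not (-0.68, limma adjusted p 0.0512). The block also gave 14 called genes for the Tet3-/- minus XX difference and a call of Klf10 in the XX transition (-0.52, adjusted p 0.0307). Tet3-/- minus XX was then 0.01 for Klf4 in mESC and -0.08 for Klf10 in EpiLC.

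Leaving out each library in turn gave 1 to 3 members and 188 to 1594 genes for Tet3-/- against XX mESC, 1 to 3 and 366 to 959 in EpiLC, and 0 to 1 and 53 to 361 for the Tet3-/- minus XX difference. Where the sign changed, the ranges were -0.74 to 0.08 for Klf5 and -0.30 to 0.21 for Klf10 in the Tet3-/- transition, -0.05 to 0.07 for Klf4 and -0.08 to 0.04 for Klf6 in Tet3-/- minus XX mESC, -0.14 to 0.27 for Klf4 and -0.22 to 0.29 for Klf10 in EpiLC, -0.13 to 0.28 for Klf4 and -0.29 to 0.52 for Klf5 in the Tet3-/- minus XX difference, and -0.03 to 0.38 for Klf3 in the XX minus XY difference.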

Other observations

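Sp5, a Sp factor known as a target of Wnt signalling, had 15.2, 27.1 and 14.1 scaled TPM in the XY mESC libraries, 0.118, 0.449 and 0.126 in XX mESC, and 1.52 to 2.36 in Tet3-/- mESC. In Tet3-/- EpiLC it had 10 in #3 and 0.0436 and 0.129 in #1 and #4. T, the Brachyury gene of early mesoderm, stood at 5, 10.3 and 5.66 in XY mESC, and at 70.3 in Tet3-/- EpiLC #3 beside 1.36 and 1.28 in #1 and #4. In XY EpiLC T had 12.5 to 15.9, while Sp5 had 0.275 to 0.335.

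Klf15, a metabolic regulator, had 12.8 to 20 scaled TPM in XX mESC and 6.88 to 9.69 in Tet3-/- mESC, with no overlap (limma log2 fold change -0.85, adjusted p 0.0517). It was not called, and the share of all genes without such overlap was not counted. Klf12, a CtBP-binding repressor, was lower in XX than in XY mESC (limma log2 fold change -1.89, adjusted p 9.68e-06), with 0.674 to 1.13 against 4.64 to 8.18 scaled TPM.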
